A study of Mus musculus with 6 samples.

Results

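Fos, Fosb, Fosl1, Jun, Junb, Jund, Egr1, Atf3, Hspa1a and Hspa1b were followed across the cell types of mouse dorsal skin in 3 groups of single-cell RNA-seq libraries. These 10 genes were taken by symbol from the 31053 genes of the deposited count tables, as subunits of the transcription factor AP-1 and other immediate early genes, with both inducible Hsp70 genes as a sign of handling stress. All 10 were found, and each passed the filter on low counts in all 9 sets of cells that were tested. The study asked what SHP099, which holds the phosphatase SHP2 in its inactive form, does in psoriasis-like skin inflammation raised by imiquimod (IMQ), an agonist of the endosomal receptor TLR7. The Sham libraries (labelled Normal, untreated) came from skin with neither agent. The IMQ libraries came from shaved back skin that received 62.5 mg of a 5% IMQ cream daily for 4 days, and the IMQ+SHP099 libraries from mice that received the same cream plus 10 mg/kg SHP099 by gavage daily. All mice were female C57BL/6 of 8 to 10 weeks with no genetic change, killed 1 day after the last treatment. Each group had 2 libraries, and a library pools skin from more than 1 mouse, so single mice cannot be told apart and every p-value below measures only the spread between such pools. The sources used here name no vehicle for the Sham mice. All skin was taken apart with collagenases, dispase and trypsin before capture.

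AP-1 is a dimer of a Jun family protein (Jun, JunB, JunD) with a Fos family protein (Fos, FosB, Fra-1, the last encoded by Fosl1) or an ATF family protein such as Atf3, and it binds the DNA element TGACTCA. Most of these genes are immediate early genes: growth factors, cytokines and stress switch them on within minutes, without new protein synthesis, and Egr1, a zinc finger factor, responds to the same signals through the ERK pathway. In the epidermis AP-1 genes are known for their part in keratinocyte differentiation, and loss of Jun proteins in mouse epidermis is known to give psoriasis-like disease. The same genes are known to rise when tissue is digested with warm enzymes, as do Hspa1a and Hspa1b, which encode the inducible chaperone Hsp70 under the control of heat shock factors.

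The libraries held 7567 to 10746 barcodes, of which 7382 to 10293 passed limits on UMIs, genes and mitochondrial share, and median depth per kept cell was 5645 to 18263.5 UMIs. Cells were put into classes by marker scores, with none of the 10 genes among the markers. In all 6 libraries the summed markers of each class were highest in that class, and no marker was at 0 in all of them. The same markers set the classes, so this largely follows from the gating and does not test the labels. The sets of keratinocytes were not compared with each other. Keratinocytes were 71.5% of the kept cells of Sham replicate 1 but 22.3% of Sham replicate 2, and IMQ+SHP099 replicate 1 was also mostly keratinocytes. Pairs of libraries shared 14 to 43 barcodes, at most 0.523% of a library. Levels below are in CPM: the UMIs of a gene in all cells of a class in a library, per 1000000 UMIs of those cells. In the 7 classes tested, the totals behind them ran from 168547 UMIs (50 phagocytes of Sham replicate 1) to 148621729 UMIs (keratinocytes of IMQ+SHP099 replicate 1).

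Promoters of Fos, Jun, Atf3, Hspa1a and Hspa1b are shown first. Hspa1a and Hspa1b have nearly the same one, and Fos, Jun and Atf3 hold elements of the AP-1 and CRE type in their own promoters. The 250-base promoters of Fosb and Junb, which are called in a comparison below, and of Jund held no TGACGTA, TGACATCA or TGACTCA. They are not shown, and Fosl1 and Egr1, also called below, had no entry. Each line gives the last 120 bases before the RefSeq transcript start (build GRCm38.p6), read 5′ to 3′ on the gene's strand. Capitals mark TGACGTA in Fos, its reverse complement in Atf3, TGACATCA in Jun, and GAANNTTC, a pair of heat shock element units, in Hspa1a and Hspa1b.
Fos, chr12:85473770-85473889, plus strand: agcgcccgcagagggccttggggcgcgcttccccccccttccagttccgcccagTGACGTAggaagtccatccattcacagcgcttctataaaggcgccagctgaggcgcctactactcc
Jun, chr4:95052223-95052342, minus strand: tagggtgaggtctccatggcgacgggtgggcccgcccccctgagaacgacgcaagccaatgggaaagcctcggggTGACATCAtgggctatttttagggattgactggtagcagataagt
Atf3, chr1:191183334-191183453, minus strand: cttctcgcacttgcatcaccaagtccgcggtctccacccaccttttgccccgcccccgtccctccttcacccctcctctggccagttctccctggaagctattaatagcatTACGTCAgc
Hspa1a, chr17:34972157-34972276, minus strand: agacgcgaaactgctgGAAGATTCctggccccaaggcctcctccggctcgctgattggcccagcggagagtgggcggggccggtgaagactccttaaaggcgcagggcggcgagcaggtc
Hspa1b, chr17:34959239-34959358, minus strand: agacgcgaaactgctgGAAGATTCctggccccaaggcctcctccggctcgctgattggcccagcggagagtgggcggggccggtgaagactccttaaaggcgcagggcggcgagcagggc

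The Fos element began 66 bases before the start, the Jun element 45 and the Atf3 element 9. Over 32851 mouse promoters of 250 bases searched on both strands, TGACGTA was in 1.08%, TGACATCA in 2.93% and GAANNTTC in 6.69%. TGACTCA was in 4.46% of promoters and had no match in those of Atf3, Fos, Fosb, Hspa1a, Hspa1b, Jun, Junb and Jund, the 8 of these genes with an entry in the table. Jun also held GAANNTTC, from 128 bases before its start. No stretch can match both TGACTCA and TGACGTA at the same place, and a match is a description of letters only. The 250-base promoters of Hspa1a and Hspa1b were the same at 247 positions, with an unbroken shared run of 201 bases. Their transcripts also shared 38.1% of their 150-base stretches (the read length given in the study's methods), but 0 in the last 500 bases, next to which 3′ libraries are read. Reads that fell further inside could belong to either gene, so both are given side by side.

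In the GRCm38 annotation the genes lie on 8 chromosomes, at chr12:85473890-85477273 (Fos), chr7:19302696-19310051 (Fosb), chr19:5447547-5455946 (Fosl1), chr4:95049034-95052222 (Jun), chr8:84974484-84978718 (Junb), chr8:70698949-70700616 (Jund), chr18:34859823-34864984 (Egr1), chr1:191170296-191218039 (Atf3), chr17:34969190-34972156 (Hspa1a) and chr17:34956436-34959238 (Hspa1b). The values cover whole genes, since the counts do not separate exons from introns or UTRs.

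Among the 7 classes tested, Fosl1 was highest in keratinocytes. Its level there was 189 and 77.4 CPM in Sham, 95.5 and 84.8 in IMQ, then 86.6 and 98.1 in IMQ+SHP099. In each of the 6 libraries that was above all 6 other classes tested (Langerhans cells, T or NK lymphocytes, mononuclear phagocytes, fibroblasts, pericytes or smooth muscle, endothelial cells), with a ratio of mean levels of 6.03 against Langerhans cells and 36.1 against pericytes. Neutrophils, which were too few to test (4 to 11 cells in 3 libraries), are not among these classes, and in the other 3 libraries their Fosl1 level, 110 to 178 CPM, was above that of keratinocytes. Basal and suprabasal keratinocytes both held it, at 64.4 to 199 and 67.7 to 170 CPM. After each cell was thinned to 2000 UMIs, 12.1% to 24.8% of keratinocytes held a Fosl1 UMI. The share of pericytes was 0.135% to 0.833% in 5 libraries and 0 of 89 in Sham replicate 1 (exact Clopper-Pearson upper bound 4.06%, counting error only). The unthinned shares were 33.3% to 74.5% and 0.661% to 3.47%, at median depths of 9833 to 34966 UMIs per keratinocyte and 4944 to 11414 per pericyte. Pericytes had the lowest mean log2 level of Fosl1 of the 7 classes, so this contrast follows from that order. Fibroblasts held 7.23 to 19.1 CPM of Fosl1 and Langerhans cells 4.72 to 61.4. The part of free RNA was not tested.

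Junb and Jund were highest in T or NK lymphocytes. Junb, a partner of BATF in T cells, stood there at 2639 and 4926 CPM in Sham, 6827 and 4787 in IMQ, then 4694 and 5037 in IMQ+SHP099, and exceeded the other classes in 6 of 6 libraries except pericytes, where it did so in 5. Jund, the AP-1 subunit that is expressed most steadily in resting cells, ran from 2438 to 4658 CPM in the lymphocytes. It ran from 568 to 1830 in keratinocytes, the tested class with the lowest mean. In Sham replicate 1, pericytes were above the lymphocytes for Jund too (2804 against 2529). Of the tested classes, T or NK lymphocytes also had the highest mean log2 level of Fos, the founding early response gene. They held 2098 to 12652 CPM, but pericytes or smooth muscle were higher in 3 of 6 libraries. For Jun, the mean of fibroblasts stood 0.07 above that of keratinocytes on the log2 scale, and keratinocytes 0.01 above endothelial cells. These and the following orders leave out classes with too few cells to test. Of those, mast cells had higher means than lymphocytes for Junb (8067 against 4818 CPM), Jund (4410 against 3452) and Fos (7303 against 4995). Schwann cells were also higher for Fos (6745). For Jun, the mast cell mean was 11304, against 1983 in fibroblasts.

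Egr1 was highest by mean in fibroblasts among the tested classes, at 994 and 2340 CPM in Sham, 1895 and 2140 in IMQ, then 832 and 1984 in IMQ+SHP099. Mast cells, which were too few to test, held 2406 to 13006 CPM. Fibroblasts exceeded keratinocytes, Langerhans cells, lymphocytes, phagocytes and endothelial cells in 6 of 6 libraries (2.07 to 4.96 times by mean level) and pericytes in 5. Atf3, a stress-induced ATF factor, showed another order: Langerhans cells had 1286 to 2757 CPM, 5.16 times the mean level of the lymphocytes and 5.70 times that of the fibroblasts, both in 6 of 6 libraries. Fosb encodes a Fos protein with a known short form. Among the tested classes it was highest by mean in T or NK lymphocytes (686 to 2710) and lowest in endothelial cells (222 to 1304). Lymphocytes exceeded Langerhans cells in only 2 of 6 libraries and fibroblasts in 3, and endothelial cells exceeded keratinocytes in 4. Mast cells had a Fosb mean of 5414 CPM, against 1513 in the lymphocytes.

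Hspa1a and Hspa1b, like Jund, had their lowest means of the tested classes in keratinocytes. Hspa1a was there at 675 and 507 CPM in Sham, 407 and 153 in IMQ, then 206 and 293 in IMQ+SHP099. Of the tested classes, Langerhans cells (213 to 2344) and mononuclear phagocytes (505 to 1719) had the highest means. Schwann cells, which were too few to test, had a higher mean of Hspa1a (1913 against 1310 in Langerhans cells). Hspa1b, again like Jund, was highest by mean in T or NK lymphocytes among the tested classes. It was at 533 to 2593 there and at 316 to 948 in keratinocytes. Its mean in Schwann cells was 1616, against 1376 in the lymphocytes.

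**Figure D1:**
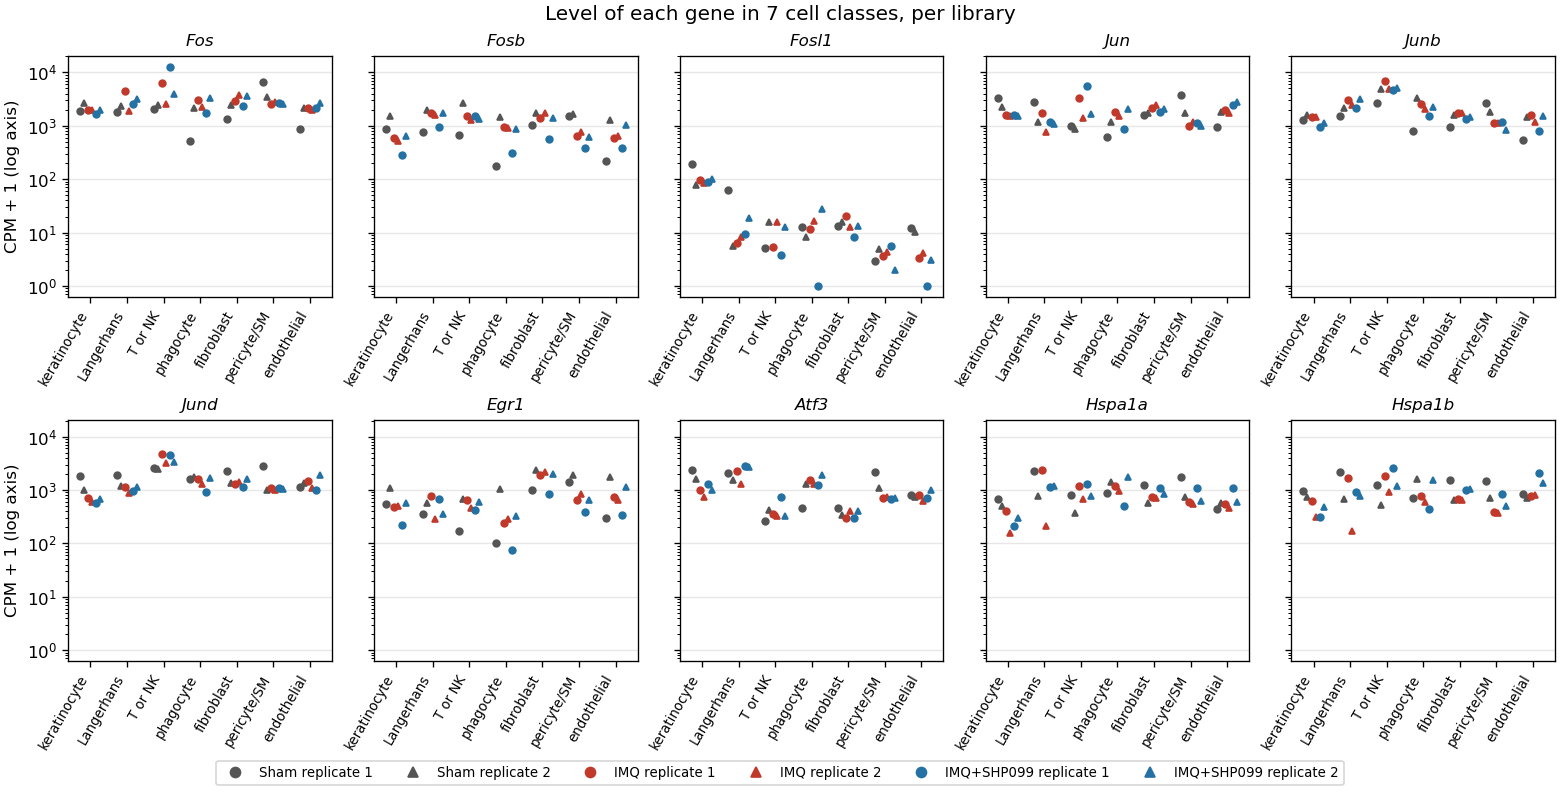
CPM + 1 (log scale) of each of the 10 genes, 1 panel per gene, in the 7 tested cell classes; each point is 1 library, coloured by group and shaped by replicate. Fosl1 stands between 77.4 and 189 in keratinocytes and lower in the other 6 classes of the same library. Junb and Jund are highest in T or NK lymphocytes except in Sham replicate 1, where pericytes or smooth muscle stand above them.

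Neighbours in these orders mostly did not differ beyond their spread. Of 60 pairs of classes next to each other in the order of a gene's mean log2(CPM + 1), 4 had the same sign in 6 of 6 libraries and the smallest p that 6 libraries allow (two-sided exact sign-flip permutation test, p = 0.03125). They were Fosl1 in keratinocytes over fibroblasts (2.92 on the log2 scale, SD 0.62), Junb in lymphocytes over Langerhans cells (0.99, SD 0.20), Jund in lymphocytes over fibroblasts (1.18, SD 0.68) and Jund in Langerhans cells over keratinocytes (0.51, SD 0.29). After Benjamini-Hochberg adjustment over the 60 pairs none passed, with a lowest adjusted p of 0.469 by the exact permutation test, and this design cannot give a lower single p.

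Among the 9 sets of cells, the median fold change of the 10 genes in IMQ against Sham was furthest from 0 in basal keratinocytes, the dividing layer, marked here by Krt5, Krt14, Krt15, Col17a1, Itgb4 and Itga6. Levels of all 10 genes were lower in both IMQ libraries than in both Sham libraries. Over all genes tested in these cells, 34.9% were lower without overlap in the same way. The median log2 fold change of the 10 genes was −1.10, against −0.07 over all 13173 genes. None passed edgeR's quasi-likelihood test with Benjamini-Hochberg adjustment over all genes of the fit, where the lowest adjusted p of the 10 was 0.0783 (Fosb).

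Atf3 in basal keratinocytes stood at 3131 and 1996 CPM in Sham, 1000 and 826 in IMQ, then 1388 and 1137 in IMQ+SHP099. Both treated groups lay below Sham with no overlap. The log2 fold change of IMQ against Sham was −1.40 ± 0.48 (SE, n = 2 libraries per group, edgeR adjusted p = 0.0956). Fosb was 1058 and 1737 CPM in Sham, 514 and 550 in IMQ, then 280 and 584 in IMQ+SHP099. It too was lower in all 4 treated libraries, with log2 fold changes of −1.17 ± 0.37 in IMQ (edgeR adjusted p = 0.0783) and −1.37 ± 0.38 in IMQ+SHP099 (edgeR adjusted p = 0.0457).

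That fall of Fosb in IMQ+SHP099 against Sham was the only one of 90 gene and cell set pairs in that comparison to pass, where 5.65% of all genes and sets passed. The call was lost in 5 other fits: the edgeR adjusted p was 0.114 with only both groups in the fit, 0.130 without IMQ replicate 1, 0.114 without IMQ replicate 2, 0.284 without IMQ+SHP099 replicate 1 and 0.0690 without IMQ+SHP099 replicate 2, with the fold change below 0 each time. It was kept without Sham replicate 1 (edgeR adjusted p = 0.0353) and without Sham replicate 2 (0.0442). In IMQ against Sham 0 of 90 pairs passed by edgeR, against 5.51% of all genes and sets. At an unadjusted p under 0.05 there were 17 of the 90, against 20.5% of all genes and sets. The 9 sets hold keratinocytes as a whole and again as basal and suprabasal cells, so the same cells count more than once. In the 7 classes without the layers, 0 of 70 pairs passed by edgeR, against 3.13% of all genes and classes. There 13 of the 70 had an unadjusted p under 0.05 by edgeR, against 17.5%. DESeq2 called 6 of the 90, and its share over all genes is not given here. Both comparisons share the Sham libraries.

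Jun was at 4133 and 2480 CPM in the basal cells of Sham and at 1644 and 1590 in those of IMQ, without overlap (log2 fold change −0.95 ± 0.48, edgeR adjusted p = 0.222). Jund was 2101 and 1043 in Sham against 752 and 596 in IMQ (−1.16 ± 0.52, edgeR adjusted p = 0.176). Egr1 was 614 and 1247 in Sham, 313 and 384 in IMQ, then 163 and 396 in IMQ+SHP099. For both Jund and Egr1 the 2 Sham libraries were far apart, though above all 4 treated ones.

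Fos and Junb were nearest to Sham. Fos in basal cells was 2503 and 2983 CPM in Sham, 2048 and 2220 in IMQ, then 1706 and 2290 in IMQ+SHP099. The log2 fold change of IMQ against Sham was −0.19 ± 0.35 for Fos and −0.26 ± 0.33 for Junb. Hspa1a (713 and 353 in Sham, 328 and 134 in IMQ) and Hspa1b (980 and 539, then 452 and 237) had log2 fold changes of −1.13 ± 0.60 and −1.06 ± 0.55, with edgeR adjusted p of 0.247 and 0.239, so the estimates of both handling stress genes were near the median of the 10.

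**Figure D2:**
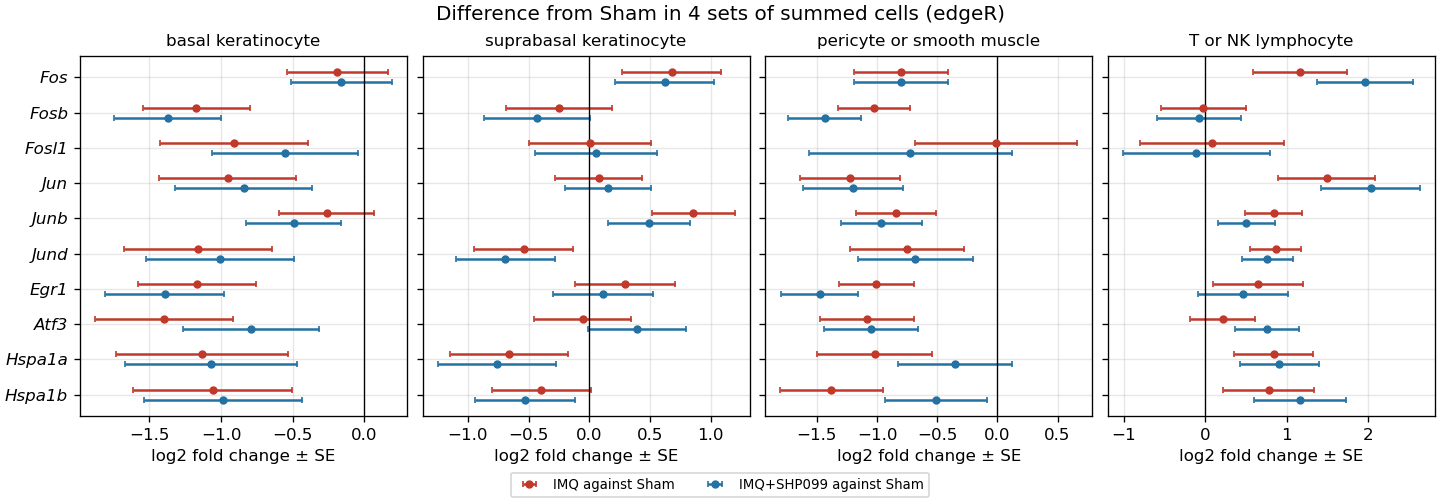
Fitted log2 fold change against Sham, with SE, of the 10 genes in 4 sets of cells, for IMQ and for IMQ+SHP099; the line at 0 marks no difference, and the scale of the horizontal axis differs between panels. All points of basal keratinocytes and pericytes lie below 0, and in T or NK lymphocytes Jun reaches 1.5 in IMQ.

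Depth per cell moved with these levels. Basal keratinocytes had a median of 8619 and 13734 UMIs per cell in Sham, 35878.5 and 29135 in IMQ, then 25843 and 24251 in IMQ+SHP099, and its part in the result was not tested. The 6 suprabasal markers in these basal cells summed to 1935 and 2603 CPM in Sham and 3008 to 3606 in the treated libraries, and 7 neutrophil markers to 380 and 185 in Sham and 10.9 to 72.5 in the treated libraries, neither with overlap, and their part was not tested. With every cell thinned to 2000 UMIs, the median cell held 3 and 4 Fos UMIs in Sham and 3 and 4 in IMQ, while Atf3 was at 4 and 2 against 2 and 1. The gap was wider among the highest cells: the 90th percentile of Atf3 UMIs was 16 and 10 in Sham, 5 and 4 in IMQ, then 6 and 6 in IMQ+SHP099, and that of Jun was 19 and 11, then 8 and 8, then 7 and 8. The share of thinned basal cells with a Fos UMI went the other way, from 70.4% and 77.7% in Sham to 88.6% and 85.1% in IMQ, so no order is read from that share.

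**Figure D3:**
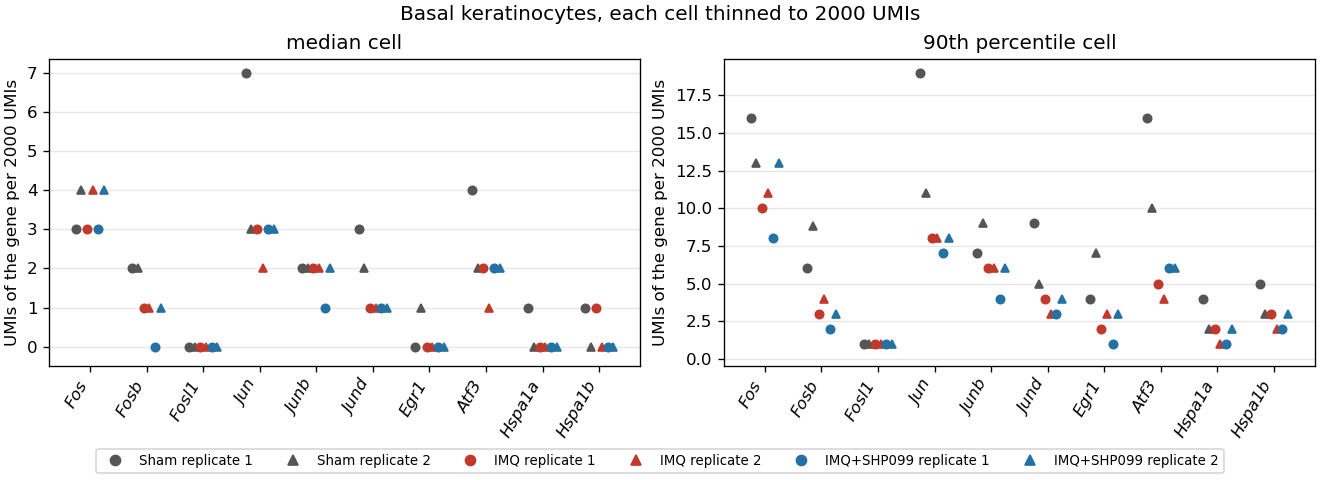
UMIs of each gene per basal keratinocyte after thinning each cell to 2000 UMIs, in the median cell (left) and the 90th percentile cell (right); each point is 1 library, coloured by group and shaped by replicate. The 90th percentiles of Atf3 and Jun are at 16 and 19 in Sham replicate 1 and at 5 and 8 in IMQ replicate 1, while the medians of Fos are at 3 in both.

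Pericytes or smooth muscle cells, the contractile cells around vessels, also had lower fitted levels of the 10 genes in IMQ. All 10 fold changes were below 0 (9 of 10 with DESeq2), and 8 genes did not overlap between groups, where 33.5% of all genes tested were lower without overlap. Fos was 6731 and 3492 CPM in Sham, 2590 and 2825 in IMQ, then 2633 and 2570 in IMQ+SHP099. Both Sham libraries were above all 4 treated ones, and Sham replicate 1, with 93 such cells, was the highest. Hspa1b had the largest difference, 1454 and 711 in Sham against 391 and 375 in IMQ (log2 fold change −1.38 ± 0.43, edgeR adjusted p = 0.182). Fosb was more even between replicates, at 1497 and 1668 against 633 and 760 (−1.03 ± 0.30, edgeR adjusted p = 0.168). None of the 10 passed in these cells. The cells' own markers (8 genes) summed to 39874 and 29990 CPM in Sham against 47049 and 46651 in IMQ, and 8 fibroblast markers in them to 1430 and 3191 against 4078 and 4801, both without overlap. The 12 keratinocyte markers summed to 203 to 505 CPM in 5 libraries and 2111 in IMQ+SHP099 replicate 1. The part of these shifts in the result was not tested.

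In T or NK lymphocytes the fitted fold changes of 9 of the 10 genes were above 0 in IMQ (7 of 10 with plain library sizes), and 3 genes were higher without overlap, against 14.6% of all genes. Jun was 992 and 884 CPM in Sham, 3299 and 1375 in IMQ, then 5622 and 1641 in IMQ+SHP099. Replicate 1 of each treated group was the high one (log2 fold change of IMQ against Sham 1.5 ± 0.60, edgeR adjusted p = 0.333). Fos was 2098 and 2436 in Sham, 6348 and 2556 in IMQ, then 12652 and 3877 in IMQ+SHP099. It did not overlap between IMQ and Sham, by a margin of 2436 to 2556, and 1.16 ± 0.58 did not pass (edgeR adjusted p = 0.405). Jund was 2529 and 2438 in Sham against 4658 and 3257 in IMQ (0.87 ± 0.31, edgeR adjusted p = 0.323).

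In IMQ+SHP099 replicate 1, which had the highest Fos, the lymphocytes were shallow, with a median of 1247.5 UMIs and 377 of 422 cells under 2000. Summed keratinocyte markers in the lymphocytes were 2347 CPM in Sham replicate 1 and 2233 in IMQ+SHP099 replicate 1, against 292 to 548 in the other libraries. Their part in these levels was not tested.

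In the other classes directions were mixed. Fibroblasts had higher Fos in IMQ without overlap, 1359 and 2429 CPM in Sham against 2964 and 3821 (0.95 ± 0.39, edgeR adjusted p = 0.380). The 8 fibroblast markers in these cells summed to 47426 and 58268 CPM in Sham against 32585 and 34541 in IMQ. Mononuclear phagocytes had Fos at 522 and 2145 in Sham, 3043 and 2218 in IMQ, then 1703 and 3247 in IMQ+SHP099, where the lowest value came from the 50 cells of Sham replicate 1. Marker sums in this class differed between groups. The 6 Langerhans markers in it summed to 16476 and 19488 CPM in Sham, above the class's own 10 markers (16417 and 13236). They summed to 1217 and 1529 in IMQ, then 2543 and 993 in IMQ+SHP099. The genes of that list are not given singly, so the shift is not read as a change of cells. Langerhans cells, the antigen-presenting cells of the epidermis, had Junb at 1494 and 2141 in Sham against 3093 and 2448 in IMQ (0.69 ± 0.30, edgeR adjusted p = 0.364). The 12 keratinocyte markers in that class summed to 13365 and 5298 CPM in Sham against 900.3 and 123 in IMQ, with 7900 and 155 in IMQ+SHP099. In endothelial cells Fosl1 was at 11.1 and 9.16 in Sham against 2.32 and 3.21 in IMQ, which rests on few UMIs, and the 12 keratinocyte markers there summed to 820 and 268 against 264 and 167. The part of these marker shifts in the levels of the 4 classes was not tested.

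The comparison of basal with suprabasal keratinocytes within a library removes what a whole library has in common. Suprabasal cells, which have begun to differentiate, were marked by Krt1, Krt10, Krtdap, Sbsn, Dmkn and Dsg1a. A fit of both layers with the library as a block gave 1 layer difference (suprabasal minus basal) per group, and this comparison was added after the data were seen. In the mean over groups, 5 of the 10 genes were higher in the suprabasal layer by edgeR with adjusted p under 0.05. Of all 13872 genes, 4052 were called higher and 3770 lower, together 56.4%. The 5 were Hspa1b (0.82 ± 0.14 on the log2 scale), Egr1 (0.70 ± 0.06), Hspa1a (0.67 ± 0.15), Junb (0.44 ± 0.08) and Fosl1 (0.43 ± 0.07).

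The layer difference itself changed with treatment for Egr1. Its level was 614 and 1247 CPM in the basal cells of Sham and 431 and 879 in the suprabasal cells of the same libraries. In IMQ it was 313 and 384 in basal cells and 611 and 602 in suprabasal cells, and in IMQ+SHP099 163 and 396, then 303 and 729. Egr1 was thus higher in the basal layer in both Sham libraries and higher in the suprabasal layer in all 4 treated ones. The layer difference in IMQ exceeded that in Sham by 1.44 ± 0.16 on the log2 scale (edgeR adjusted p = 0.00777) and that in IMQ+SHP099 by 1.49 ± 0.16 (edgeR adjusted p = 0.0102).

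Junb, which is needed for balanced epidermal growth in the mouse, turned in the same way. It was 1459 and 1757 CPM in basal and 915 and 1451 in suprabasal cells of Sham, against 1200 and 1170 in basal and 1612 and 1698 in suprabasal cells of IMQ. The layer difference rose by 1.08 ± 0.19 (edgeR adjusted p = 0.0292) in IMQ and by 0.95 ± 0.19 (edgeR adjusted p = 0.0468) in IMQ+SHP099, where levels were 836 and 1014, then 1137 and 1256. Fosl1 was 199 and 86.4 in basal and 170 and 67.7 in suprabasal cells of Sham, against 83.1 and 64.4, then 105 and 99.99 in IMQ. Its layer difference rose by 0.89 ± 0.17 in IMQ (edgeR adjusted p = 0.0353), while 0.58 ± 0.17 in IMQ+SHP099 did not pass (edgeR adjusted p = 0.116).

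These 3 of 10 genes stand against 4.45% of all genes called for IMQ minus Sham, and 2 of 10 against 3.08% for IMQ+SHP099 minus Sham. Those shares count both directions, with 369 genes called above 0 and 248 below for IMQ minus Sham. For IMQ+SHP099 minus Sham the counts were 247 and 180. The estimates of all 10 were above 0 for IMQ minus Sham, with a median of 0.89 against −0.06 over all 13872 genes. By edgeR 7 of the 10 had an unadjusted p under 0.05, as did 3062 of the 13872. Hspa1a (0.19 ± 0.37) and Hspa1b (0.46 ± 0.34) were not among those 7, with unadjusted p of 0.610 and 0.208 by edgeR. For IMQ+SHP099 minus IMQ no layer difference passed by edgeR (0 of 13872 genes, of which 274 had an unadjusted p under 0.05), and the estimate for Egr1 was 0.06 ± 0.16.

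The layers themselves were less distinct in the treated libraries. In the suprabasal cells the summed basal markers were 4421 and 2906 CPM in Sham, 16428 and 16366 in IMQ, then 17048 and 11718 in IMQ+SHP099. The summed suprabasal markers of the same cells were 48009 and 36238, then 20070 and 18967, then 18467 and 21273. Of 16039 keratinocytes 5.35% lay near the score at which the layers were parted. The part of this shift in the layer differences was not tested, and it cannot be told apart from them by these sums. For the counts that follow, the share of all genes called in the same fits is not given here. The number of called genes depended on single libraries, being 0 without IMQ replicate 1, 1 without IMQ replicate 2, 2 without Sham replicate 1, without IMQ+SHP099 replicate 1 or without IMQ+SHP099 replicate 2, and 7 without Sham replicate 2. The Egr1 estimate stayed between 1.30 and 1.59 across these, with its highest adjusted p, 0.0641, without IMQ replicate 1.

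**Figure D4:**
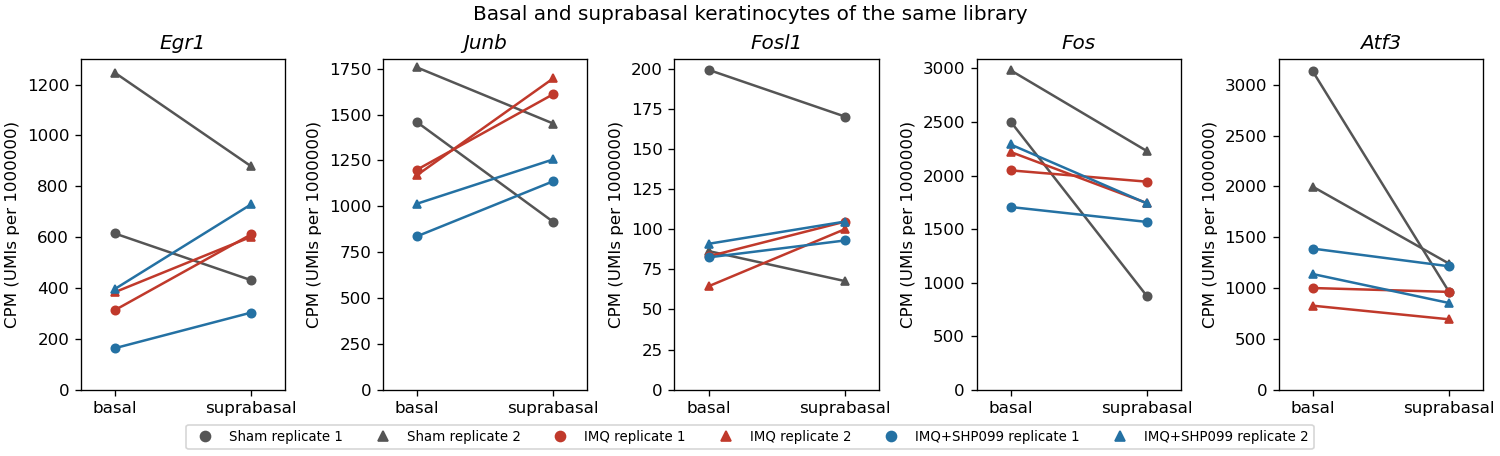
CPM of 5 of the genes in basal and suprabasal keratinocytes, with a line joining both layers of 1 library, coloured by group. Egr1, Junb and Fosl1 slope down from basal to suprabasal in both Sham libraries and up in all 4 treated libraries.

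In suprabasal cells taken alone, Junb was higher in IMQ than in Sham without overlap (0.86 ± 0.34, edgeR adjusted p = 0.137), and none of the 10 genes passed. Directions there depended on scaling for some genes: Egr1 was 0.29 with TMM scaling and −0.12 with plain library sizes, and Jun 0.08 and −0.27. TMM scaling, which corrects for genes that take up a large part of the UMIs, raised the fold changes of IMQ against Sham by 0.07 to 0.34 on the log2 scale in the 9 sets of cells. All 10 genes stayed lower in the basal cells with plain library sizes.

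SHP099 in IMQ-treated skin came with no called difference. Of the 90 pairs, 0 passed edgeR in IMQ+SHP099 against IMQ (0% of all genes and sets passed), 1 had an unadjusted p under 0.05, and DESeq2 called 0. That pair was Hspa1b in endothelial cells, at 777 and 798 CPM in IMQ and 2035 and 1369 in IMQ+SHP099 (1.13 ± 0.32 on the log2 scale, edgeR unadjusted p = 0.00651, adjusted p = 1.00). Hspa1a was also higher there, without overlap, at 554 and 455 against 1096 and 590. Atf3 in basal keratinocytes stood above IMQ in both SHP099 libraries, at 1388 and 1137 against 1000 and 826 (0.61 ± 0.47), and below Sham. The standard errors, 0.30 to 1.17 over the 90 pairs, set how small a difference could be seen with 2 libraries per group.

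Replicates of a group differed in a way that ran across cell types. Fosb was higher in replicate 2 than in replicate 1 of Sham in 7 of 7 classes, by 1.11 to 8.34 times, and Egr1 likewise, by 1.38 to 10.2 times. In endothelial cells Egr1 was 302 against 1758 CPM. In IMQ+SHP099 both genes were higher in replicate 2 in 6 of 7 classes, with median ratios of 2.26 and 2.39, whereas in IMQ the median ratios were 0.964 and 1.05. Replicate numbers have no shared meaning across groups in the labels.

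Hspa1a showed the opposite in IMQ, where replicate 1 was higher in 7 of 7 classes, with the widest gap in Langerhans cells at 2344 against 213 CPM. In Sham, Hspa1a was lower in replicate 2 in 5 of 7 classes. Sham replicate 2, with the higher Fosb and Egr1, thus did not have the higher Hsp70 genes in most classes.

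**Figure D5:**
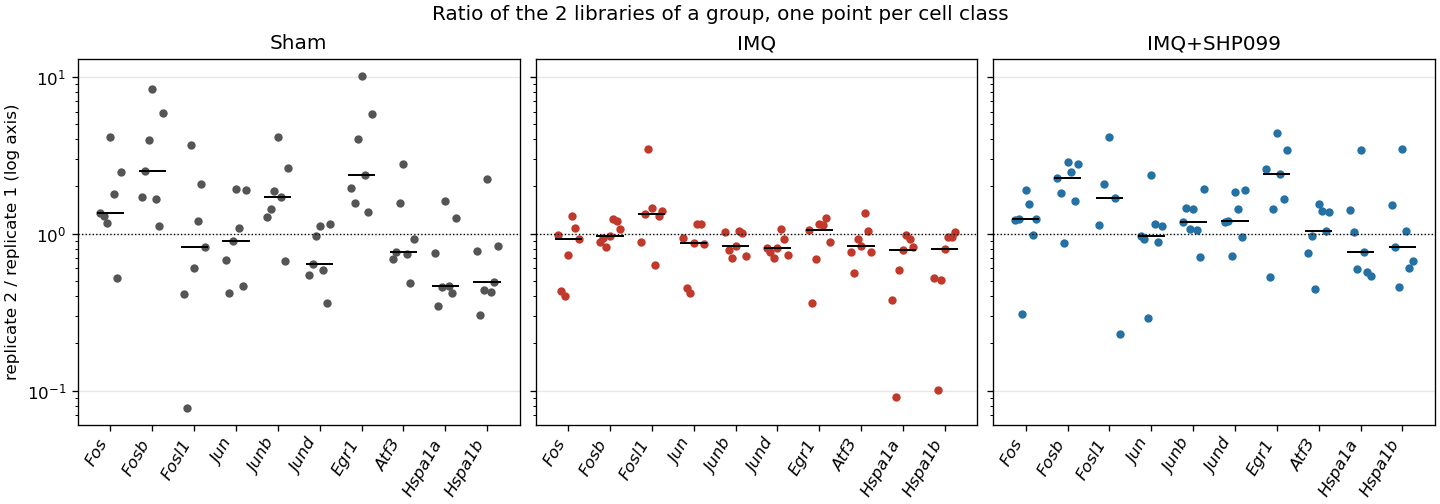
Ratio of replicate 2 to replicate 1 (log scale) of each gene within each group; each point is 1 of 7 cell classes, the short bar is their median, and the dotted line at 1 marks equal levels. Fosl1 in IMQ+SHP099 has 5 points, since replicate 1 had no Fosl1 UMI in phagocytes and endothelial cells. In Sham all 7 points of Fosb and Egr1 lie above 1, up to 8.34 and 10.2, and in IMQ all 7 points of Hspa1a lie below 1.

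Over 48 sums (6 libraries of both keratinocyte layers and the 6 other classes), patterns of the genes were compared by Pearson's r of log2(CPM + 1), among 6430 genes, as a description, since the sums share libraries and differ in depth. Hspa1a was most like Hspa1b (r = 0.838), then Stx8 (0.684), Tsc22d3, Idnk and Vim. Fosl1 was most like the epithelial genes Fam83g (0.839), Calml3, Capns2, Anxa8 and Barx2. Junb was most like Cd69 (0.845) and Ltb, genes of activated and resting lymphocytes, followed by Clk1, Coq10b and Jaml. The nearest for Fos were Zfp511 (0.672), the heat shock gene Hsph1 (0.662), Junb (0.656), Mettl26 and Fosb (0.647), and Fos and Fosl1 had an r of −0.311. Among pairs of an AP-1 gene with an Hsp70 gene, r was highest for Jund, at 0.683 with Hspa1b and 0.609 with Hspa1a, followed by Jun with Hspa1b (0.527), and lowest for Fosl1 with Hspa1a (−0.412).

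Other genes around this system were counted from 5 lists, which were chosen with earlier results of these data known. The counts are thus descriptions and do not test for enrichment. In keratinocytes of IMQ against Sham, 8 of 17 genes with known AP-1 sites or tied to JunB in skin passed, 7 higher and 1 lower (list median 1.56), where 12.6% of all genes tested passed. S100a8, a neutrophil-attracting alarmin, rose from 1.34 to 14358.5 CPM by group mean (log2 fold change 13.57 ± 0.88), S100a9 from 1.14 to 14752 (13.71 ± 1.27), and Plaur, the urokinase receptor, rose from 5.10 to 21.3 (2.23 ± 0.59). Timp3, a metalloproteinase inhibitor, fell from 112 to 15.8 CPM (−2.47 ± 0.37). S100a8 was also called in phagocytes, fibroblasts and endothelial cells of IMQ and S100a9 in phagocytes and fibroblasts, and the part of free RNA in that was not tested.

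The other 4 lists are read against the same 12.6%. Of 25 other early response genes 0 passed in keratinocytes as a whole, with a list median of 0.09. In the basal layer 1 passed (list median −0.36): Cyr61 fell from 391 to 71.2 CPM (−2.45 ± 0.64), where 12.3% of all genes passed. In the suprabasal layer 1 of the 25 passed and was higher (list median 0.56), where 1662 of 13005 genes passed. Of 17 other AP-1 and bZIP genes only Atf7 was called in keratinocytes as a whole (lower, −1.18 ± 0.28). Of 14 other heat shock genes only Hsf2, a heat shock factor, was called there (33.2 to 6.27 CPM, −2.19 ± 0.40). In the basal layer 2 of these 14 were called higher and 2 lower, and in the suprabasal layer 1 higher and 1 lower. Of 16 upstream kinases and factors, 2 rose and 1 fell. The median over all genes tested in keratinocytes was −0.08.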

How the data were processed

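Dorsal skin of 6 mouse libraries was profiled by 10x 3′ single-cell RNA-seq. The authors made the deposited UMI counts per gene and barcode with Cell Ranger on GRCm38 (mm10), per the submitters' processing notes, and the counts carry no normalization. Barcodes under 100000 UMIs, 6500 genes and 10% mitochondrial UMIs were kept, as in the study's methods. No doublet caller was run; these caps and a score margin of 0.1 between classes were the only guard. The study's cell labels were not used, and classes were rebuilt from marker scores (minimum 0.15), so shares may differ from the study's. Counts were summed per class and library, and classes with at least 20 cells in each library were tested with edgeR 4.0.16 (R 4.3.3; TMM, filterByExpr, glmQLFit and glmQLFTest; all 6 libraries in 1 fit; group as the only term; adjusted p under 0.05 over all genes). Standard errors were derived from the log2 fold change and F. DESeq2 1.42.0, scanpy 1.11.5, scipy 1.17.1 and numpy 2.4.6 (Python 3.11.15) served the alternatives and levels, and the fits were tested on simulated data. For shares and percentiles, cells were thinned to 2000 UMIs and shallower ones left out; an exact permutation test of 2 against 2 libraries cannot go below p = 0.333 (two-sided), so shares carry no call. The 10 genes and all lists were chosen with earlier results of these data known. All 10 genes are named; of the other lists, genes with adjusted p under 0.05 and at least 20 CPM in a group are named, up to 3 each way per class. The lists of other AP-1 and bZIP, early response, heat shock, AP-1 target and upstream genes are described by counts.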

Additional observations from a re-analysis of the deposited data

Results flagged for a closer look

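The difference between suprabasal and basal keratinocytes differed between groups, by a test of the interaction itself (edgeR with the library as a block, adjusted over all genes; n = 2 libraries per group), for 3 genes in IMQ minus Sham and 2 in IMQ+SHP099 minus Sham. For IMQ minus Sham the values on the log2 scale were 1.44 for Egr1, 1.08 for Junb and 0.894 for Fosl1. For IMQ+SHP099 minus Sham they were 1.49 for Egr1 and 0.950 for Junb, and both comparisons share the Sham libraries. In each case both Sham libraries lay on one side of 0 and both treated libraries on the other. The summed basal markers in suprabasal cells did not overlap between Sham and the treated groups either, and their part was not tested.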

How the results depend on the processing

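With 2 libraries of pooled mice per group, counts of called genes depended on the fit, and the cause was not tested. The share of all genes called under each of the other settings is not given here. The counts below are thus not read as a result about the 10 genes. In IMQ against Sham, 0 of 90 pairs passed as reported, against 6 with DESeq2, 14 with no filter on low counts, 2 with a mitochondrial limit of 5%, 2 with plain library sizes and 0 to 9 when 1 library was left out (9 without Sham replicate 2). In IMQ+SHP099 against Sham, 1 passed as reported, against 6 with DESeq2, 13 with no filter, 0 with only both groups in the fit, 2 with the 5% limit, 2 with a wider score margin, 4 with plain library sizes and 0 to 7 when 1 library was left out. The 3 called layer differences of IMQ minus Sham became 5 with DESeq2, 6 with no filter and 0 to 7 when 1 library was left out. Of the pairs of neighbouring classes, 7 in place of 4 reached p = 0.03125 (exact permutation test) with classes taken from Leiden clusters. IMQ+SHP099 against IMQ gave 0 under every setting run. With the replicate number as a block, 3 pairs passed in IMQ against Sham (Atf3, Fosb and Egr1 in basal keratinocytes) and 2 in IMQ+SHP099 against Sham. The labels do not say that a number marks a shared batch, and deviations of same-numbered libraries from their group means had correlations of −0.06 to 0.40 over genes, with 2 numbers only, so this is not read as pairing. None of the settings run reversed the fall of Fosb in IMQ+SHP099 against Sham or the 3 called layer differences of IMQ minus Sham. The layer differences of IMQ+SHP099 minus Sham and the mean layer differences over groups were not checked in this way. The layer fits were not run with only both groups or with the replicate block. Of 90 differences in thinned shares of cells with a UMI, 41 moved and 27 changed sign without thinning. The plain library sizes and the layer comparison were added after the data were seen.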

Other observations

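Classes with under 20 cells in a library were not tested, and no test was made of their values. Mast cells (4 to 35 cells per library) had Jun at 25840 and 7159 CPM in Sham, 6902 and 9191 in IMQ, then 10609 and 8122 in IMQ+SHP099, and Egr1 at 13006 and 9551, 2406 and 3527, and 2957 and 4213. The 10 genes took 8.77% of all mast cell UMIs in Sham replicate 1. Schwann cells, the glia of skin nerves, had Fos at 6911 and 5970 in Sham, 6962 and 7508 in IMQ, then 6598 and 6522 in IMQ+SHP099, with 11 to 368 cells per library. Hspa1a in them ranged from 1359 to 1502 CPM in 5 libraries and was 4458 CPM in IMQ+SHP099 replicate 1, with its 11 cells.

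Neutrophils numbered 4 and 11 in Sham, 157 and 309 in IMQ, then 9 and 90 in IMQ+SHP099. In the 3 libraries with at least 90 of them, Fosl1 was at 110 and 118 CPM in IMQ and 178 in IMQ+SHP099 replicate 2, against 95.5, 84.8 and 98.1 in keratinocytes of the same libraries, and 16.5% to 28.8% of neutrophils thinned to 2000 UMIs held a Fosl1 UMI. Hspa1a was at 190, 98.6 and 66.2 CPM and Hspa1b at 126, 65.9 and 38.3 in these cells. Whether Fosl1 there comes from free RNA was not tested.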
